A study of Bos taurus with 6 samples.

Results

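The 10 genes described here form a muscle atrophy and FOXO stress group: the ubiquitin ligase genes FBXO32 and TRIM63, the transcription factor genes FOXO1, FOXO3, FOXO4 and KLF15, the stress-response genes DDIT4 and GADD45A, the glucocorticoid-responsive chaperone gene FKBP5, and the mitophagy gene BNIP3. They were matched by name among 17258 genes in the transcript files of 6 cattle, and 8 of the 10 passed the filter of a mean FPKM (fragments per kilobase of transcript, scaled to the size of the library) of at least 1 in at least 1 breed. FBXO32 and BNIP3, as named in the annotation, did not.

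The longissimus dorsi, a back muscle, was studied by RNA-Seq in 3 Shandong black cattle (B1 to B3) and 3 Luxi cattle (L1 to L3), all 18 months old, with 1 library per animal. Shandong black cattle were bred from Japanese black, Luxi and Bohai black cattle, and Luxi cattle are a local yellow breed. The study compared the breeds with regard to fat deposition in muscle. The breeds came from different suppliers, so breed and origin cannot be told apart.

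In muscle, insulin and IGF-1 act through AKT to keep FOXO proteins out of the nucleus. When this signal falls, as in fasting, or when glucocorticoids rise, FOXO factors enter the nucleus and raise the transcription of the ligases Atrogin-1 (the product of FBXO32) and MuRF1 (the product of TRIM63), which mark muscle proteins for the proteasome, and of genes for autophagy. DDIT4, FKBP5 and KLF15 are known targets of the glucocorticoid receptor.

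The libraries rested on 14.1 to 14.6 gigabases of aligned sequence in Shandong black cattle and on 17.5 to 17.99 gigabases in Luxi cattle. All carried skeletal muscle RNA, with summed levels of 9 fibre markers between 16347 FPKM (L1) and 68385 FPKM (L2). The levels of 6 fat cell markers added up to 110 to 174 FPKM in Shandong black cattle and to 2.23 to 17.6 FPKM in Luxi cattle, and each of the 6 was lower in every Luxi animal, with LEP at 0 in L1. In the fibroblast and matrix list, 3 of 5 markers were higher in every Luxi animal, and the sums were 106 to 157 FPKM against 353 to 467 FPKM. Of the 9 fibre markers, 1 was lower in every Luxi animal, the slow-fibre troponin gene TNNT1, and 1 was higher, the fast-fibre troponin gene TNNT3. The breeds overlapped for the others, among them the myosin genes MYH1, MYH2 and MYH7. XIST, the RNA that marks the inactive X chromosome and was picked after its values were seen, was at 4.83 to 14.04 FPKM in Shandong black cattle and at 0, 0 and 0.207 FPKM in Luxi cattle. The labels used here give no sex, and the breeds cannot be told apart from what XIST marks. In such bulk tissue, fewer cells of a type and less RNA per cell cannot be told apart, and the part of these markers in the differences below was not tested.

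The genes were chosen by their role and by FPKM differences between these breeds that were already known, so their levels are given as a description, without a test. As a background, 249 of 9765 genes tested with limma passed an adjusted p of 0.05 with a log2 difference of at least 1 (2.55%), 152 of them higher in Luxi cattle (1.56%) and 97 lower (0.993%). The split was 149 higher and 133 lower with TPM, 116 and 147 with median-of-ratios size factors, and 125 and 164 with quantile normalization. Of the 8 atrophy genes tested, FOXO1 and DDIT4 passed this rule, both higher in Luxi cattle, with 1 of them left without B1 and none without B3. The 3 animals of one breed all lay above those of the other for 5 of the 8 (TRIM63, FOXO1, FOXO4, DDIT4 and FKBP5), each time with Luxi cattle higher, beside 29.1% of all genes tested (20.0% with Luxi higher and 9.10% with Luxi lower). Without L1, the animal least like the others of its breed (mean correlation 0.886 over genes), 9 of the 10 genes passed the filter. Of these, 8 did not overlap, each with Luxi cattle higher. Over the 9697 genes tested in that fit of 3 against 2 animals, 50.4% did not overlap (35.9% with Luxi higher). The 8 include BNIP3, which passed the filter there only through L2 and L3 (1.204 and 0.821 FPKM), so its place in the count follows in part from the filter. The median log2 difference (Luxi minus Shandong black, on log2(FPKM + 1)) was 0.72 over the 8 genes and 0.13 over all genes tested, and with median-of-ratios size factors these medians were 0.57 and 0.01.

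**Figure D1:**
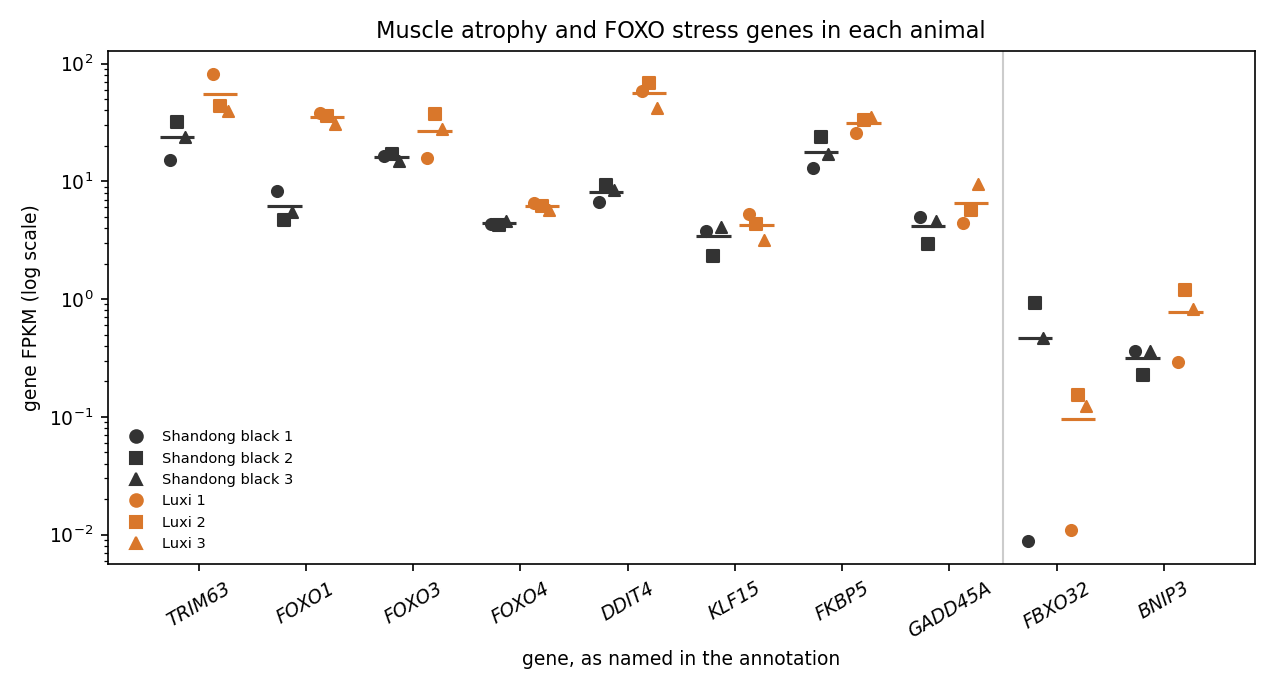
FPKM of the 10 genes in each of the 6 animals, on a log scale. Points are animals and horizontal lines are breed means (n = 3), and the 2 genes right of the vertical line are below the filter on FPKM. FOXO1 and DDIT4 show the widest gap between the breeds, while FOXO3, KLF15 and GADD45A overlap.

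TRIM63 encodes MuRF1, a ligase that marks thick-filament proteins for breakdown. It lies on the plus strand of chromosome 2 (ARS-UCD1.2, chr2:127020871-127035930) with 9 exons. Its level was 15.3, 32.1 and 23.7 FPKM in B1, B2 and B3 and 81.3, 43.5 and 39.2 FPKM in L1, L2 and L3. The breeds did not overlap, but the gap between B2 and L3 was narrower than the spread within Luxi cattle, where L1 stood far above the other animals. The means were 23.7 ± 8.41 FPKM and 54.7 ± 23.2 FPKM (SD, n = 3), and the log2 difference was 1.16 (SE 0.38). Without L1 the difference was 0.84. Of the 2 annotated transcripts, which share nearly all their bases, the one named rna6027 held 77.1% (B1) to 95.3% (B2) of the FPKM.

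The 3 tested genes whose pattern over the 6 animals was most like that of TRIM63 were SEMA7A, FLT1 and KLHL38. The root-mean-square difference between centred log2(FPKM + 1) profiles was 0.16, 0.17 and 0.19 in turn. SEMA7A, a membrane-bound semaphorin, was at 0.427, 1.29 and 1.06 FPKM in Shandong black cattle and at 7.03, 3.21 and 2.60 FPKM in Luxi cattle. KLHL38 was at 3.85, 9.06 and 6.20 FPKM and at 21.4, 17.1 and 12.7 FPKM. FLT1, a VEGF receptor of blood vessels, was at 2.24, 4.798 and 3.39 FPKM in Shandong black cattle and at 13.8, 5.63 and 7.81 FPKM in Luxi cattle. L1 was highest for all 3, as for TRIM63. The 4 endothelial markers found in the files added up to 17.0 to 18.1 FPKM in Shandong black cattle and to 63.4 (L1), 22.5 (L2) and 31.7 FPKM (L3) in Luxi cattle, and 2 of the 4 were higher in every Luxi animal. Their part in the TRIM63 pattern was not tested.

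FBXO32 encodes Atrogin-1, the substrate-binding subunit of a ubiquitin ligase complex. In the files its name marks only a single-exon feature of 318 bases on the minus strand of chromosome 13 (chr13:81490531-81490848), with 0.00889, 0.932 and 0.469 FPKM in B1, B2 and B3 and 0.0109, 0.152 and 0.124 FPKM in L1, L2 and L3. The gene table of the newer assembly ARS-UCD2.0 has FBXO32 on chromosome 14, between LOC100848930 and NTAQ1, which the files name WDYHV1. It was the only gene of the lists used here whose chromosome differed between the files and that table, beside 1.28% of the 15753 genes that could be looked up.

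In the interval between these neighbours on chromosome 14 the files hold no named transcript, but every animal had unnamed, spliced transcripts on the plus strand, between positions 16328133 and 16369668. The main one had 9 exons in 5 animals and 10 in L1, and its coverage was 333 to 1180 reads per base. Their summed level was 23.7, 78.2 and 30.3 FPKM in B1, B2 and B3 and 60.6, 79.6 and 22.9 FPKM in L1, L2 and L3. The breeds overlapped fully, with L3 the lowest animal of all and B2 next to the highest. The means were 44.1 ± 29.8 FPKM and 54.4 ± 28.9 FPKM (SD, n = 3). That these transcripts belong to FBXO32 rests on their neighbours alone, so the level under the name and the level at this locus are both given.

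**Figure D2:**
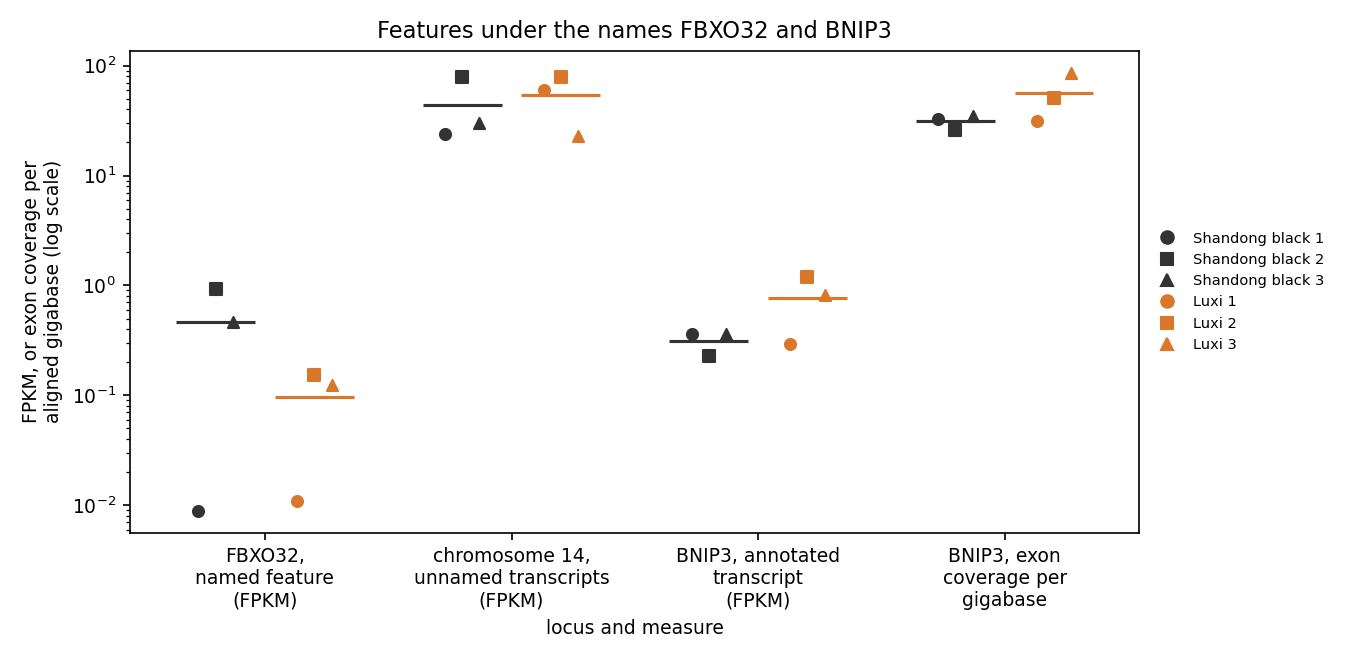
Levels of the feature named FBXO32, of the unnamed transcripts on chromosome 14, of the annotated BNIP3 transcript (all in FPKM), and of the coverage over BNIP3 exons per aligned gigabase, on a log scale. Points are animals and lines are breed means (n = 3). Both named features lie near or below 1, while the other measures lie between 22.9 and 86.3.

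The FOXO factors bind promoters of atrophy, autophagy and metabolic genes. FOXO1 lies on the plus strand of chromosome 12 (chr12:21900254-21993948) with 3 exons. Its level was 8.24, 4.73 and 5.53 FPKM in B1, B2 and B3 and 38.2, 36.04 and 30.5 FPKM in L1, L2 and L3. Every Luxi animal was far above every Shandong black animal, and the spread within each breed was small beside the gap. The means were 6.17 ± 1.84 FPKM and 34.9 ± 3.98 FPKM (SD, n = 3), a ratio of 5.66, and the log2 difference was 2.35 (SE 0.24), between 2.20 and 2.55 when any 1 animal was left out. It missed the call rule only without B3, a fit in which 3 genes in all were called. In B2 and B3, but in no other animal, the files also hold unnamed transcripts on the same strand that start inside the FOXO1 gene and share no base with its exons, at 8.61 FPKM in B2 and 6.26 and 7.19 FPKM in B3, and the first of the pair in B3 runs past the end of FOXO1. They were not counted to FOXO1, and its annotated exons alone had 4.73 to 6.83 against 29.8 to 38.2 units of coverage per aligned gigabase, a scale close to FPKM.

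FOXO3 lies on the minus strand of chromosome 9 (chr9:41503633-41621614). Its level was 16.3, 17.1 and 14.8 FPKM in B1, B2 and B3 and 15.8, 37.0 and 27.97 FPKM in L1, L2 and L3. The Shandong black animals were close together, L2 and L3 lay above them, and L1 lay among them, so the breeds overlapped. The log2 difference was 0.64 (SE 0.31), and it was 0.96 without L1 and 0.37 without L2. A transcript of 2048 bases, rna27734, held 69.6 to 80.5% of the FPKM, and the FPKM of each transcript is per its own length. Another annotated transcript, rna27732, has 7233 bases. The coverage spread over all annotated exons of FOXO3 was 7.45 ± 0.18 and 12.5 ± 5.22 per aligned gigabase (SD, n = 3), with the same order of animals at the top.

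FOXO4 lies on the X chromosome, on the minus strand (chrX:79528188-79535459). Its level was 4.37, 4.29 and 4.602 FPKM in B1, B2 and B3 and 6.53, 6.13 and 5.72 FPKM in L1, L2 and L3. The animals of each breed were tightly grouped and the breeds did not overlap, with means of 4.42 ± 0.16 FPKM and 6.12 ± 0.40 FPKM (SD, n = 3). The log2 difference was 0.39 (SE 0.15), and it was 0.26 with median-of-ratios size factors and 0.24 with quantile normalization. XIST, from the same chromosome, separated the breeds in the other direction, and its part in the FOXO4 difference was not tested.

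**Figure D3:**
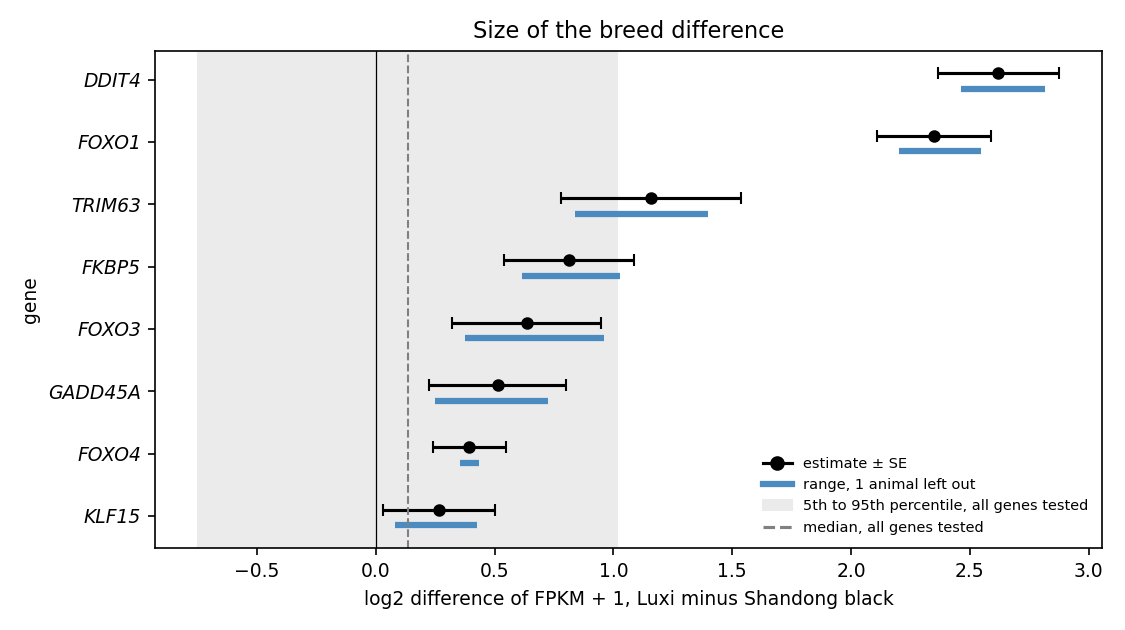
Log2 difference between the breeds (Luxi minus Shandong black, on log2(FPKM + 1)) of the 8 genes that passed the filter, with its standard error, and below it the range when each of the 6 animals was left out. The grey band is the 5th to 95th percentile of all genes tested (-0.75 to 1.02) and the dashed line their median (0.13), and DDIT4, FOXO1 and TRIM63 lie to the right of the band.

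DDIT4 encodes REDD1, an inhibitor of mTORC1 that is induced by glucocorticoids, low oxygen and energy stress. It lies on the plus strand of chromosome 28 (chr28:28323892-28325923) with 3 exons. Its level was 6.71, 9.32 and 8.51 FPKM in B1, B2 and B3 and 58.0, 68.6 and 41.8 FPKM in L1, L2 and L3. The lowest Luxi animal was above the highest Shandong black animal by more than the whole range of either breed. The means were 8.18 ± 1.33 FPKM and 56.2 ± 13.5 FPKM (SD, n = 3), a ratio of 6.86. The log2 difference was 2.62 (SE 0.25), the largest of the 8, and stayed between 2.46 and 2.81 when any 1 animal was left out, although it missed the rule without B1 or without B3.

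FKBP5 encodes FKBP51, a co-chaperone of HSP90 that lowers the hormone affinity of the glucocorticoid receptor. It lies on the minus strand of chromosome 23 (chr23:9555619-9677847). Its level was 13.01, 23.7 and 16.9 FPKM in B1, B2 and B3 and 25.8, 33.4 and 35.4 FPKM in L1, L2 and L3. The breeds did not overlap, but B2 and L1 were close. The means were 17.9 ± 5.43 FPKM and 31.6 ± 5.10 FPKM (SD, n = 3), with a log2 difference of 0.81 (SE 0.27). In L1, further unnamed transcripts on the strand of FKBP5, most of whose bases lie outside its exons, carried 50.3 FPKM and were not counted, against 14.2 FPKM in L2, 5.23 in B1, 3.16 in L3 and 0 in B2 and B3. Coverage over the annotated exons, which takes in their exonic part, gave 12.9, 22.3 and 15.7 per aligned gigabase in B1, B2 and B3 and 34.1, 39.6 and 33.7 in L1, L2 and L3, and a log2 difference of 1.06 (SE 0.24). Of its 8 annotated transcripts, rna63562 held from 48.9% (B1) to 99.6% (L2) of the FPKM, and rna63564 held 35.1% in B1 and 0.022% in L2.

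**Figure D4:**
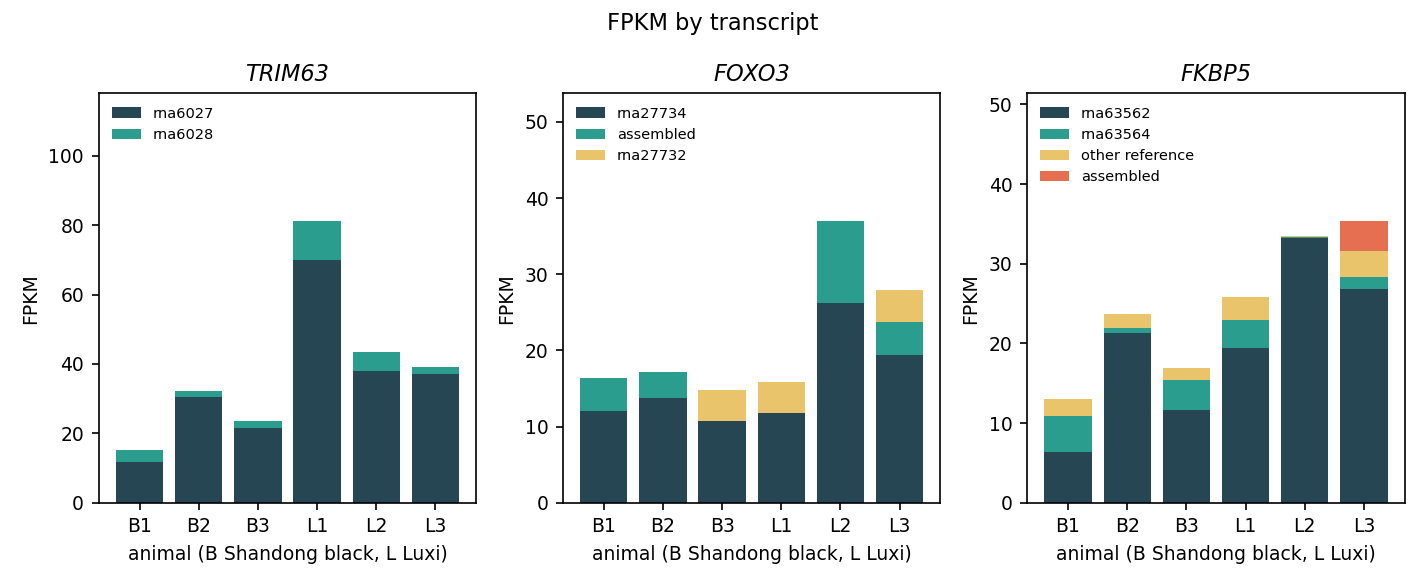
FPKM of TRIM63, FOXO3 and FKBP5 in each animal, stacked by transcript (names starting with rna are annotated transcripts, assembled are unnamed transcripts counted to the gene). One transcript leads in every animal, and the share of rna63562 in FKBP5 ranges from 48.9% in B1 to 99.6% in L2.

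KLF15 encodes a transcription factor that raises the breakdown of branched-chain amino acids. It lies on the plus strand of chromosome 22 (chr22:60612168-60624630). Its level was 3.79, 2.34 and 4.08 FPKM in B1, B2 and B3 and 5.31, 4.35 and 3.19 FPKM in L1, L2 and L3. The breeds overlapped, with L3 below both B1 and B3. The log2 difference of 0.27 (SE 0.24) was the smallest of the 8 with all animals in the fit. It was 0.08 without B2, 0.13 without L1, 0.42 without L3, 0.15 with size factors and 0.14 with quantile normalization.

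GADD45A encodes a stress protein that binds cell-cycle and chromatin proteins and is induced by ATF4 in wasting muscle. It lies on the minus strand of chromosome 3 (chr3:77648759-77651847) with 4 exons. Its level was 5.01, 2.93 and 4.59 FPKM in B1, B2 and B3 and 4.43, 5.74 and 9.47 FPKM in L1, L2 and L3. L3 was highest, while L1 lay below B1 and B3. The log2 difference was 0.51 (SE 0.29), and it was 0.33 without B2 and 0.25 without L3.

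BNIP3 encodes a mitochondrial receptor that directs damaged mitochondria to autophagy. Its annotated transcript of 824 bases (chr26:51221338-51225301, minus strand, 5 exons) had 0.359, 0.226 and 0.360 FPKM in B1, B2 and B3 and 0.294, 1.204 and 0.821 FPKM in L1, L2 and L3. Most reads at this place were instead assembled into longer transcripts of the same strand, which in 5 animals ran on over exons of LOC104976020 and were left out because under 50% of their bases lay on exons of BNIP3. Together these carried 10.1, 11.6 and 13.02 FPKM in B1, B2 and B3 and 15.8, 15.9 and 56.6 FPKM in L1, L2 and L3. Coverage over the annotated BNIP3 exons was 32.6, 26.1 and 35.0 per aligned gigabase in B1, B2 and B3 and 31.6, 50.6 and 86.3 in L1, L2 and L3. L2 and L3 were higher than every Shandong black animal on each of these measures, while on the exon coverage L1 was among the Shandong black animals, so the breeds overlapped.

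By FPKM, which is per length, TRIM63 was the most abundant of the 10 in Shandong black cattle, followed by FKBP5 (17.9 FPKM) and FOXO3 (16.1 FPKM), and the ranges of each of these neighbours overlapped. DDIT4 (8.18 FPKM) and FOXO1 (6.17 FPKM) came next, below the lowest value of FOXO3 and overlapping each other, and then FOXO4, GADD45A and KLF15 between 3.40 and 4.42 FPKM, each overlapping the next. In Luxi cattle DDIT4 (56.2 FPKM) and TRIM63 (54.7 FPKM) led and overlapped. FOXO1 (34.9 FPKM), FKBP5 (31.6 FPKM) and FOXO3 (27.0 FPKM) followed, each overlapping its neighbour. DDIT4 thus stood at the 4th place in one breed and at the first in the other, and FOXO1 at the 5th and at the 3rd. By coverage over annotated exons, FOXO3 (7.45 per aligned gigabase) came below DDIT4 (8.12) in Shandong black cattle, and FKBP5 (35.8) came above FOXO1 (34.7) in Luxi cattle. The chromosome 14 transcripts, with 44.1 and 54.4 FPKM, and BNIP3 by exon coverage, with 31.2 and 56.2 per aligned gigabase, are not part of these ranks. The highest animal was L1 for TRIM63, FOXO1, FOXO4 and KLF15, L2 for FOXO3 and DDIT4, and L3 for FKBP5 and GADD45A, so the 3 Luxi animals did not share an order across the genes.

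Other genes of the pathway were taken from 7 lists of 110 genes in all, written from known roles. The lists were chosen with earlier results of these data known, so their calls and p-values are a description and no independent evidence. Upstream, in the insulin and IGF-1 arm, none of 17 genes was called by limma, and 3 were higher and 0 lower at an unadjusted p under 0.05. Over all 9765 genes tested, 2135 had an unadjusted p under 0.05 in limma, in either direction. In the insulin list 11 differences were above 0 and 6 below, beside 62.6% above 0 over all genes tested. Its median log2 difference was 0.15, beside 0.13 over all genes tested. The adaptor genes IRS1 and PIK3R1 had the largest differences among those whose breeds did not overlap and were not called (limma adjusted p = 0.082 and 0.068). IRS1, the docking protein of the insulin receptor, was at 2.67, 2.88 and 3.07 FPKM in Shandong black cattle and at 4.57, 10.8 and 11.8 FPKM in Luxi cattle. PIK3R1, the regulatory subunit of PI3-kinase, was at 7.61, 6.98 and 6.97 FPKM and at 14.3, 11.1 and 15.1 FPKM. In 3 of the 17 every Luxi animal was higher, and in 1 every Luxi animal was lower, beside 20.0% and 9.10% of all genes tested. IRS1 was called without L1 or with TPM.

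Of 14 tested genes of the glucocorticoid list, 3 rose in Luxi cattle, none fell and 11 were not called (5 were higher and 0 lower at an unadjusted p under 0.05 in limma), with a median log2 difference of 0.45. PER1, a clock gene with glucocorticoid response elements, rose from 4.05, 5.61 and 5.20 FPKM in B1, B2 and B3 to 20.3, 41.0 and 18.7 FPKM in L1, L2 and L3, a log2 difference of 2.14 (SE 0.32, limma adjusted p = 0.026). ZBTB16, a zinc-finger gene induced by the receptor, was at 7.90, 13.6 and 13.04 FPKM and at 35.3, 31.0 and 43.5 FPKM, a log2 difference of 1.61 (SE 0.27, limma adjusted p = 0.032). NFKBIA, the inhibitor of NF-kappa-B, was at 16.8, 13.8 and 16.1 FPKM and at 40.2, 52.5 and 45.5 FPKM, a log2 difference of 1.503 (SE 0.21, limma adjusted p = 0.022). In each of the 3, every Luxi animal was above every Shandong black animal. Of the 14, 5 were higher and 2 lower in every Luxi animal, beside 20.0% and 9.10% of all genes tested. The 2 were HSP90AA1 (197, 137 and 165 against 126, 87.3 and 101 FPKM) and GLUL (244, 240 and 230 against 112, 170 and 201 FPKM). Neither was called (limma adjusted p = 0.23 and 0.31). Of the 14 differences 10 were above 0 and 4 below, beside 62.6% above 0 over all genes tested. The receptor gene NR3C1 itself, named for its place in the list, had 7.08 ± 0.74 FPKM against 10.5 ± 3.35 FPKM (SD, n = 3), with overlapping breeds, and was not called (limma adjusted p = 0.31). The list count was 0 without B1 or B3, 1 without B2, L2 or L3, and 5 without L1, and PER1 kept its call in 4 of the 6 such fits and ZBTB16 and NFKBIA in 1 each. Of the 9 alternatives that kept all animals, PER1 and NFKBIA kept the call in 8 each and ZBTB16 in 5, losing it without a filter, with reference transcripts only, with the replicate block and by exon coverage.

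**Figure D5:**
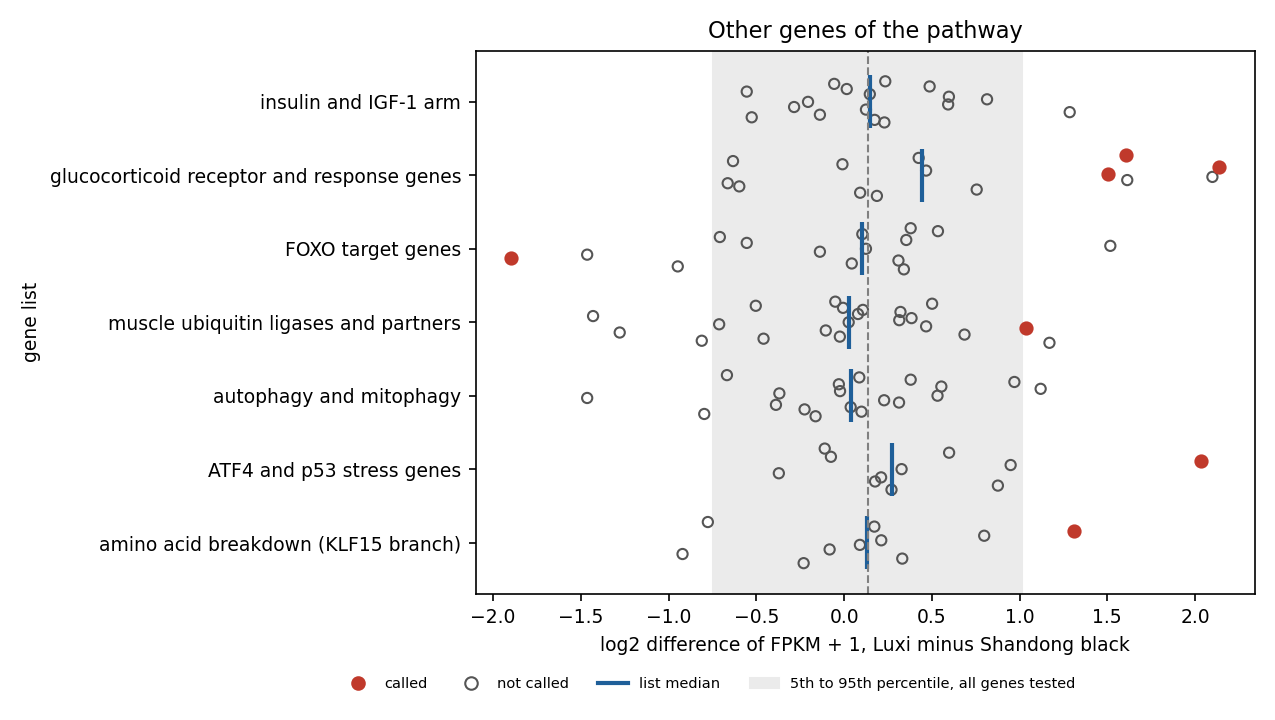
Log2 difference between the breeds (Luxi minus Shandong black, on log2(FPKM + 1)) of the tested genes in each of 7 pathway lists. Filled points passed the call rule, blue bars are list medians, the grey band is the 5th to 95th percentile of all genes tested and the dashed line their median. Called genes are 3 in the glucocorticoid list and 1 each in the FOXO target, ligase, ATF4 and p53, and amino acid lists.

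Downstream, among 15 tested FOXO target genes none rose and 1 fell (1 was higher and 3 were lower at an unadjusted p under 0.05 in limma), with a median log2 difference of 0.10 that was -0.05 with median-of-ratios size factors. The gene that fell was CITED2, a co-regulator of transcription, from 18.1, 46.8 and 31.5 FPKM in B1, B2 and B3 to 7.28, 5.39 and 9.82 FPKM in L1, L2 and L3, a log2 difference of -1.90 (SE 0.37, limma adjusted p = 0.045). It was called in none of the 6 fits that left out an animal and in 6 of the 9 other alternatives. PDK4, which switches muscle from glucose to fat oxidation, was at 139, 419 and 217 FPKM in Shandong black cattle and at 539, 752 and 738 FPKM in Luxi cattle and was not called (limma adjusted p = 0.12). GABARAPL1, an autophagosome gene that also stands in the autophagy list, was at 45.8, 37.8 and 46.6 FPKM and at 24.5, 7.96 and 17.0 FPKM and was not called (limma adjusted p = 0.092). In both genes the breeds did not overlap, with PDK4 higher and GABARAPL1 lower in Luxi cattle, but the log2 difference of PDK4, 1.52, turned to -1.33 with reference transcripts only. By that measure L1 and L2 had 20.9 and 43.6 FPKM, and the rest of their PDK4 level was on assembled transcripts.

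Of 21 ligase genes and their partners, 1 rose and 20 were not called, and 4 were higher and 4 lower at an unadjusted p under 0.05 in limma. Of the 21 differences 11 were above 0 and 10 below, beside 62.6% above 0 over all genes tested. With size factors 8 of the 21 differences were above 0, and with TPM, size factors or quantile normalization none of the 21 rose and 1, TRIM54, fell. MUL1, a ligase of the outer mitochondrial membrane, rose from 4.58, 3.11 and 4.27 FPKM in B1, B2 and B3 to 8.89, 8.60 and 9.93 FPKM in L1, L2 and L3, a log2 difference of 1.04 (SE 0.19, limma adjusted p = 0.038), and its difference was 0.90 with size factors and 0.89 with quantile normalization, below the fold threshold. MUL1 also lost its call with TPM (limma adjusted p = 0.071), without a filter, with reference transcripts only and with the replicate block, and its adjusted p ranged from 0.030 to 0.17 over the alternatives. TRIM54, a MuRF family member of the sarcomere, was at 182, 106 and 151 FPKM and at 47.7, 49.1 and 61.3 FPKM, and was not called (limma adjusted p = 0.051), but it was called in 5 of the 9 alternatives that kept all animals. ASB2, a substrate receptor in muscle, was at 56.7, 86.9 and 68.2 FPKM and at 87.5, 254 and 176 FPKM and was not called (limma adjusted p = 0.17). TRIM54 was thus lower in every Luxi animal, where its relative TRIM63 was higher. The list count was 3 without L1, 0 without any other 1 animal.

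Among 19 autophagy and mitophagy genes none was called by limma, and 1 was higher and 2 were lower at an unadjusted p under 0.05. Of their differences 10 were above 0 and 9 below, beside 62.6% above 0 over all genes tested. In the 3 of 19 genes whose breeds did not overlap Luxi cattle were lower. Over all genes tested 29.1% did not overlap, 9.10% with Luxi lower. Besides GABARAPL1 the 3 included WIPI1, an early autophagosome gene, at 34.4, 22.5 and 31.9 FPKM in Shandong black cattle and 15.2, 20.1 and 19.0 FPKM in Luxi cattle (limma adjusted p = 0.17). Without L1, GABARAPL1 and TFEB, a transcription factor of lysosome and autophagy genes, were called.

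Of 11 tested genes of the ATF4 and p53 stress list, 1 rose and 10 were not called (2 were higher and 0 lower at an unadjusted p under 0.05 in limma). The gene that rose was GADD45G, a close relative of GADD45A, with 4.83, 3.40 and 4.72 FPKM in B1, B2 and B3 and 19.9, 16.6 and 26.5 FPKM in L1, L2 and L3, a log2 difference of 2.03 (SE 0.23, limma adjusted p = 0.014). GADD45B, the other relative, was at 1.49, 1.60 and 1.48 FPKM and at 3.47, 2.45 and 6.48 FPKM and was not called (limma adjusted p = 0.12), although its breeds did not overlap. GADD45G kept its call in 4 of the 6 fits that left out an animal and lost it without B1 or B3.

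Of 10 tested genes of amino acid breakdown, the branch that KLF15 is known to drive, 1 rose and 9 were not called. At an unadjusted p under 0.05 in limma, 2 were higher and 1 lower. GPT, an alanine aminotransferase, was at 2.14, 2.79 and 2.55 FPKM in B1, B2 and B3 and at 8.46, 7.65 and 6.81 FPKM in L1, L2 and L3, a log2 difference of 1.31 (SE 0.17, limma adjusted p = 0.019). BCAT2, which takes the first step of branched-chain amino acid breakdown, was at 4.11, 1.43 and 1.51 FPKM and at 0.804, 0.747 and 0.456 FPKM (limma adjusted p = 0.14). DLD, a shared subunit of the mitochondrial dehydrogenase complexes, was at 16.8, 16.2 and 18.3 FPKM and at 28.5, 44.0 and 22.3 FPKM (limma adjusted p = 0.15). BCAT2 was lower and DLD higher in every Luxi animal, and neither was called. GPT lost its call without B1, B3 or L2, and with reference transcripts only no gene of this list was called.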

How the data were processed

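The authors cleaned reads with Fastp, used HISAT for alignment to the genome ARS-UCD1.2, and assembled each library with StringTie (1.3.3b per the file headers) and the NCBI annotation. The values deposited by the authors are coverage, FPKM and TPM per transcript. Gene FPKM was computed here as the sum over transcripts of that name plus those unnamed ones on its strand with 50% or more of their length on its exons. A transcript missing from a file counted as 0. Reads were not counted here, so no counting error is given and precision is limited by 3 animals per breed. Genes whose mean FPKM reached 1 in either breed were fitted over the 6 animals with limma 3.58.1 in R 4.3.3 (lmFit, eBayes with trend) on log2(FPKM + 1), with Benjamini-Hochberg adjustment over all 9765, and called at an adjusted p under 0.05 and a log2 difference of at least 1 in size. The procedure was tested on simulated data. Cuffdiff, named in the paper, needs alignments and was not used here.

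Members and lists were chosen with earlier results of these data known. Named genes are the members, the called genes of each pathway list (at most 4), or, where fewer than 2 were called, also the 2 largest differences without overlap of the breeds, the 3 genes with the pattern most like TRIM63, and marker genes. For FBXO32, which was below the filter, no such pattern was sought. The alternatives were a pseudocount of 0.1, no filter, a mean FPKM of 5 or more, TPM instead of FPKM, size factors by median of ratios, quantile normalization, reference transcripts only, no fold threshold, a replicate block and leaving out each animal. Coverage over annotated exons, summed over every transcript of the strand and divided by aligned gigabases, was added after seeing the data.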

Additional observations from a re-analysis of the deposited data

How the results depend on the processing

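For the 8 atrophy genes that passed the filter, the alternative fits gave 119 log2 differences. All 119 were above 0, and 117 differed from the main value by less than the spread between animals. All of them reuse the same 6 animals. Dropping the filter, raising it or adding the replicate block cannot change a difference, so those values could not move. FOXO4 moved more, to 0.26 with size factors and 0.24 with quantile normalization. FOXO1 and DDIT4 were called in all 9 other alternatives and lost the call only where an animal was left out. Leaving out 1 animal at a time gave 3 (without B3) to 591 (without L1) called genes over all, 15 without B1, 48 without L2 and 86 without L3. It gave 0 to 2 called members and 5 to 8 without overlap, beside 34.05 to 50.40% of all genes tested (23.38 to 35.91% with Luxi higher). The 8, without L1, include BNIP3, which among these fits passed the filter only in that one. Leaving out 1 animal also gave 0 to 1 called genes in the insulin list, 0 to 5 in the glucocorticoid, 0 to 1 in the FOXO target, 0 to 3 in the ligase, 0 to 2 in the autophagy, 0 to 1 in the ATF4 and p53 and 0 to 1 in the amino acid list. Without a filter 65 genes were called, with 1 in the glucocorticoid list and 0 in the FOXO target and ligase lists. With a mean FPKM of at least 5 there were 139, with 2 in the ligase list. With reference transcripts only there were 162, with 0 in the FOXO target, ligase and amino acid lists. TPM called 1 gene in the insulin list and 2 FOXO targets, size factors and quantile normalization 2 FOXO targets each, and exon coverage 2 ligase genes. The cause of these changes was not tested. The fits that left out an animal also rested on fewer animals, and the part of that was not tested either.

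The replicate numbers are shared by different animals. The correlation over genes of same-numbered animals' deviations from their breed means was 0.09, 0.09 and 0.082. Every animal was closest to its own number in the other breed, but these correlations are small. The deviations within a breed sum to 0, so the matches are not independent and no pairing is read from them. With the replicate block 134 genes were called over all, 0 in the FOXO target and ligase lists.

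Depth was confounded with breed, and 21.9 to 30.8% of each library's FPKM lay on assembled transcripts counted to no gene. One library per animal leaves animal and library spread together.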
